A study of Mus musculus with 32 samples.

Results

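The 34 genes described here are interferon response genes, a list written by name from general knowledge of the pathway and matched to the deposited table by symbol. All 34 were among the 37310 genes of the table, and all 34 passed the filter on low values (a CPM, the count scaled to the size of its library, above 1 in at least 3 tumors), as did 21024 genes in all. The study compared bulk RNA sequencing of 6 GMYC and 8 GTML brain tumors of mice, to ask how MYC-driven and MYCN-driven models of medulloblastoma differ. GMYC tumors arise in Glt1-tTA/TRE-MYC mice, which are hemizygous for both transgenes. The tTA protein made from the Glt1 promoter turns on MYC unless doxycycline is given. GTML tumors arise in the same Tet-OFF arrangement with a MYCN transgene. Glt1 is a glial glutamate transporter, so both transgenes are switched on in cells that use its promoter. The mice are immunocompetent, and each biopsy holds tumor cells together with whatever host cells were in the piece. No treatment is given for these tumors, and ages are not in the labels.

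Interferons are secreted proteins that cells release on sensing viral or misplaced nucleic acids, and T and NK cells release the type II form, interferon gamma. Type I and type III interferons signal through receptor-bound JAK kinases to a transcription factor complex that includes STAT2 and IRF9 and binds the interferon-stimulated response element (ISRE), whereas interferon gamma acts mainly at the gamma-activated site (GAS). The target genes encode transcription factors that carry the response on, sensors of viral RNA and DNA, and effectors that block translation, degrade RNA or attack vesicles that hold pathogens. In the brain, microglia and infiltrating leukocytes are well known to carry such a response, and tumor cells, astrocytes and endothelial cells can do so too.

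The short stretches below are shown because they hold the letters of one or other element just ahead of the start of genes on which the results turn. They are from the RefSeq gene starts on the GRCm38.p6 assembly, are written along the strand of the gene, and carry in capitals the match to the ISRE pattern GAAANNGAAA (or TTTCNNTTTC, the same letters on the other strand) or, in Irf1 and Irf8, to the GAS pattern TTCNNNGAA, which reads the same on both strands. Windows of 300 bases, from 250 before to 50 after the start, were found for 25 of the 34 genes. The ISRE letters were in a window of 14 of these 25 (56%), against 3.99% of all 27025 genes with a window, and the GAS letters were in 8 (32%), against 9.55%. Both were in 3 (Bst2, Eif2ak2 and Oas1a), and in Bst2 an ISRE match other than the one in capitals overlaps the GAS match. The Isg15 and Bst2 stretches hold further ISRE matches that overlap the one in capitals. A match describes the letters only, and the counts of the series do not measure binding.
Ifit1 at chr19:34640770-34640809, plus strand: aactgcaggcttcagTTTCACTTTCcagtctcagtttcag
Ifit3 at chr19:34583358-34583397, plus strand: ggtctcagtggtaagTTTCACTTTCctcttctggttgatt
Isg15 at chr4:156200866-156200905, minus strand: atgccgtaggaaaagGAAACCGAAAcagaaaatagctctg
Gbp2 at chr3:142620589-142620628, plus strand: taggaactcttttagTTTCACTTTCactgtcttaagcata
Cxcl10 at chr5:92349078-92349117, minus strand: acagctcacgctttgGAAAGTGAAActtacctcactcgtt
Bst2 at chr8:71537572-71537611, minus strand: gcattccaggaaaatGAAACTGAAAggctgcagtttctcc
Irf1 at chr11:53769909-53769947, plus strand: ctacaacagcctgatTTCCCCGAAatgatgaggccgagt
Irf8 at chr8:120736172-120736210, plus strand: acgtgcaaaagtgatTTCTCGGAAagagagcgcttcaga

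Total counts were between 6218378 and 7279811 in GMYC tumors and between 4602294 and 6317404 in GTML tumors. Counts assigned to the mouse Myc gene ranged from 33.4 to 166 CPM in GMYC and from 2.60 to 8.68 CPM in GTML tumors. Those of Mycn ranged from 7.65 to 34.4 CPM in GMYC and from 119 to 191 CPM in GTML, so both were in the order of the labels. The paper describes the MYC of the GMYC transgene as human. How far transgene reads were counted on the mouse genes was not tested. The 4 listed Group 3 medulloblastoma markers (Otx2, Npr3, Crx and Nrl) summed to between 530 and 900.0 CPM in every tumor. GTML tumor 2 had the lowest sum and stood apart in its makeup, with Crx at 97.6 CPM against 298 to 429 CPM in the other 13 tumors and Npr3 at 176 CPM against at most 67.4 CPM. Some of the study's own comparisons leave out a GTML tumor with an SHH-like signature that the labels do not name, so all 8 GTML tumors are used here and results that change without GTML tumor 2 are given both ways. Small nucleolar RNAs (snoRNAs) took unequal shares of the counts and split the tumors into 6 with 0.366% or more (GMYC tumors 1 to 4, GTML tumors 1 and 2) and 8 with 0.272% or less (GMYC tumors 5 and 6, GTML tumors 3 to 8), which is also the order of the deposited columns. That split is no label of the study, and results are given within each side where they differ. The labels do not tie tumors to litters or say that each came from its own mouse, so p-values measure the spread between these biopsies.

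None of the 34 interferon response genes differed between GTML and GMYC tumors by edgeR's quasi-likelihood test at an adjusted p of 0.05. Of all 21024 genes, 4459 (21.2%) did, 11.5% higher in GTML and 9.71% higher in GMYC. At an adjusted p under 0.01 with an absolute log2 fold change above 1 the share was 3.22% of all genes, again with no interferon response gene. limma-voom (21.4% of all genes) and DESeq2 (27.8%) also called 0 of the 34. At an unadjusted p of 0.05 edgeR took in 1 of the 34 (Irf8), against 37.8% of all genes. limma-voom took in 1 (Oas2, fitted higher in GTML) and DESeq2 0. DESeq2 gave no adjusted p for Irf8 or Gbp2, so its counts of 0 are no result for them. The ranges of the models overlapped for all 34, while 4.62% of all genes had ranges that did not. The fitted log2 fold changes, always given as GTML over GMYC, were below 0 for 23 and above 0 for 11, with a median of -0.39 (0.04 over all genes), and ran from -1.37 for Gbp3 to 1.22 for Oas2.

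The fold changes were measured with wide error. The median standard error of a log2 fold change was 0.603 for the 34 genes and 0.282 for all genes, and the 95% confidence interval stayed inside 1 log2 unit on either side of 0 for 4 of them only (Stat2, Irf9, Dhx58 and Eif2ak2). The median also turned with the tumors used. It was -0.83 in the higher-snoRNA tumors, 0.45 in the lower-snoRNA tumors and, with 1 tumor left out, between -0.69 (without GTML tumor 8) and 0.04 (without GMYC tumor 2).

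**Figure D1:**
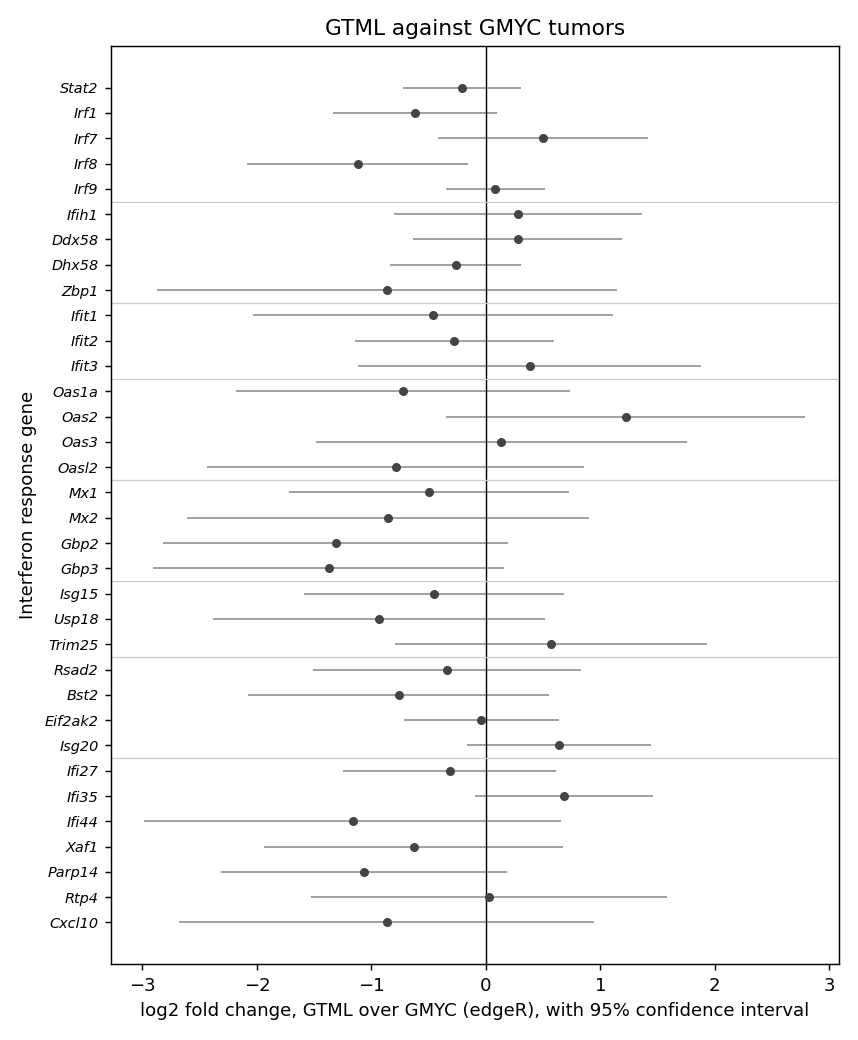
Fitted log2 fold change of each interferon response gene, GTML over GMYC, with its 95% confidence interval from edgeR over 6 GMYC and 8 GTML tumors; grey lines separate the roles. The interval of Irf8, from -2.08 to -0.16, does not reach 0, and the other 33 cross it.

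Among the transcription factors, Irf8, which drives myeloid cell development and is induced by interferon gamma, ranged in GMYC tumors from 12.2 to 132 CPM with a median of 20.8, and in GTML tumors from 11.9 to 25.8 CPM with a median of 17.9. The GMYC value of 132 CPM was that of tumor 2 alone, with the next at 24.8 CPM, inside the GTML range. Its log2 fold change was -1.12 ± 0.454 (SE; 95% interval -2.08 to -0.16; edgeR adjusted p = 0.0854). Without GMYC tumor 2 it was -0.13 (adjusted p = 0.708), and with limma-voom on all tumors -0.60 (adjusted p = 0.331). Irf1, the early activator of interferon gamma targets whose GAS match is shown above, followed the same layout, with 88.8 CPM in GMYC tumor 2 and 21.6 to 33.6 CPM in the other GMYC tumors against 12.6 to 41.2 CPM in GTML (log2 fold change -0.62, 95% interval -1.34 to 0.10). Irf7, the amplifier of type I interferon production, was instead highest in GTML tumor 8, at 26.9 CPM, with GTML tumor 3 at 20.6 and GMYC tumor 2 at 19.98 CPM. Stat2 and Irf9, members of the type I complex, had the least spread of the list. Stat2 lay between 15.5 and 55.0 CPM with its highest value in GMYC tumor 6, and Irf9 between 14.7 and 37.7 CPM with its highest in GMYC tumor 4. Their log2 fold changes were -0.21 (95% interval -0.73 to 0.31) and 0.08 (-0.35 to 0.52).

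Of the nucleic acid sensors, Ifih1 (the RNA sensor MDA5) was between 2.55 and 17.4 CPM in GTML tumors, the highest in tumor 8, and between 1.38 and 12.7 CPM in GMYC tumors, the highest in tumor 2. Ddx58 (the RNA sensor RIG-I) reached 31.9 CPM in GMYC tumor 4, with the other GMYC tumors between 3.67 and 12.8 and GTML tumors between 7.55 and 27.2 CPM. Dhx58, a regulator of both, varied little, from 6.32 to 9.34 CPM in GMYC and from 3.65 to 6.82 CPM in 7 GTML tumors, with tumor 8 at 13.6 CPM. Zbp1, a sensor of Z-form nucleic acids that can start cell death, was the most uneven of the list. It stood at 21.95 CPM in GMYC tumor 2 and 7.49 CPM in GTML tumor 8, and the other 12 tumors lay between 0 and 3.21 CPM.

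The IFIT proteins bind viral RNA and stop its translation. Ifit1 was at 10.8 CPM in GMYC tumor 2, 10.2 in GMYC tumor 4 and 9.48 in GTML tumor 8, and no other tumor was above 4.58 CPM, so high tumors of both models stood side by side. Ifit3 was highest in GTML tumor 8 (10.9 CPM), followed by GTML tumor 3 (9.32 CPM), GMYC tumor 2 (6.90 CPM) and GMYC tumor 4 (4.45 CPM). Ifit2 departed from that order, with its highest value, 22.1 CPM, in GTML tumor 3. The OAS family is named for enzymes that, on binding double-stranded RNA, make the messenger that activates RNase L. Oasl2 was at 25.3 CPM in GMYC tumor 2, at 11.3 CPM in GTML tumor 8 and at 7.14 CPM in GMYC tumor 4, and Oas1a kept the same order at 4.93, 3.97 and 3.23 CPM. Oas2 had the largest fitted change toward GTML, a log2 fold change of 1.22 ± 0.740 (SE; 95% interval -0.35 to 2.79), or 2.06 with limma-voom (adjusted p = 0.0845). Its GMYC values were 8.36 CPM in tumor 4, 4.64 CPM in tumor 2 and no more than 1.00 CPM in the other 4, with 0 in tumor 3, while GTML tumors ran from 1.17 to 11.9 CPM with a median of 5.88. Among the 8 lower-snoRNA tumors, which include neither of the high GMYC tumors, Oas2 was the 1 interferon response gene called of 33 tested, with a log2 fold change of 3.14 (edgeR adjusted p = 0.0496; 13.3% of all genes called there). The GMYC side of that fit is tumors 5 and 6 alone, with 5 Oas2 counts each. Oas3 was low throughout, at most 5.21 CPM.

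Mx and GBP proteins are GTPases that trap viral particles or coat the vacuoles of intracellular pathogens, the GBP family being a classical target of interferon gamma. Gbp2 ranged from 5.05 to 98.6 CPM in GMYC tumors (median 9.41) and from 2.08 to 36.2 CPM in GTML tumors (median 6.10), and Gbp3 from 3.25 to 82.6 CPM (median 7.45) and from 1.89 to 28.6 CPM (median 5.75). GMYC tumor 2 and GTML tumor 8 held both maxima and stood far above the rest of their own model. The log2 fold changes, -1.31 (95% interval -2.82 to 0.19) for Gbp2 and -1.37 (-2.91 to 0.16) for Gbp3, turned on these 2 tumors. Without GTML tumor 8 they were -2.03 (edgeR adjusted p = 0.0434) and -2.04 (adjusted p = 0.0494), at a background of 18.3% of all genes, and without GMYC tumor 2 that of Gbp2 was 0.06. Mx1 reached 6.47 CPM in GMYC tumor 2 and 5.50 CPM in GTML tumor 8, with no other tumor above 3.64 CPM. Mx2, which the annotation marks as a polymorphic pseudogene, was highest in GMYC tumor 4, at 13.9 CPM, ahead of 9.01 CPM in GMYC tumor 2 and 7.03 CPM in GTML tumor 8.

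In the ISG15 system, Isg15, the ubiquitin-like modifier, was at 5.65 CPM in GTML tumor 8 and between 0.333 and 1.75 CPM in the other GTML tumors, and at 4.08 and 3.37 CPM in GMYC tumors 2 and 4 against 0.612 to 1.93 CPM in the other GMYC tumors. Its log2 fold change was -0.45 (95% interval -1.59 to 0.69). Usp18, which removes ISG15 and dampens type I receptor signaling, was highest in GMYC tumor 4 at 15.9 CPM, then GMYC tumor 2 at 9.43 CPM, with every GTML tumor between 1.32 and 4.13 CPM. Trim25, a ubiquitin ligase that activates RIG-I, did not share this layout at all. It was highest in GTML tumor 4 at 96.1 CPM, next in GMYC tumor 3 at 38.1 and GTML tumor 3 at 32.3 CPM, and in GMYC tumors 2 and 4 and GTML tumor 8 it was between 7.03 and 9.85 CPM. GTML tumor 4 and GMYC tumor 3 had the lowest means over the 34 genes.

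**Figure D2:**
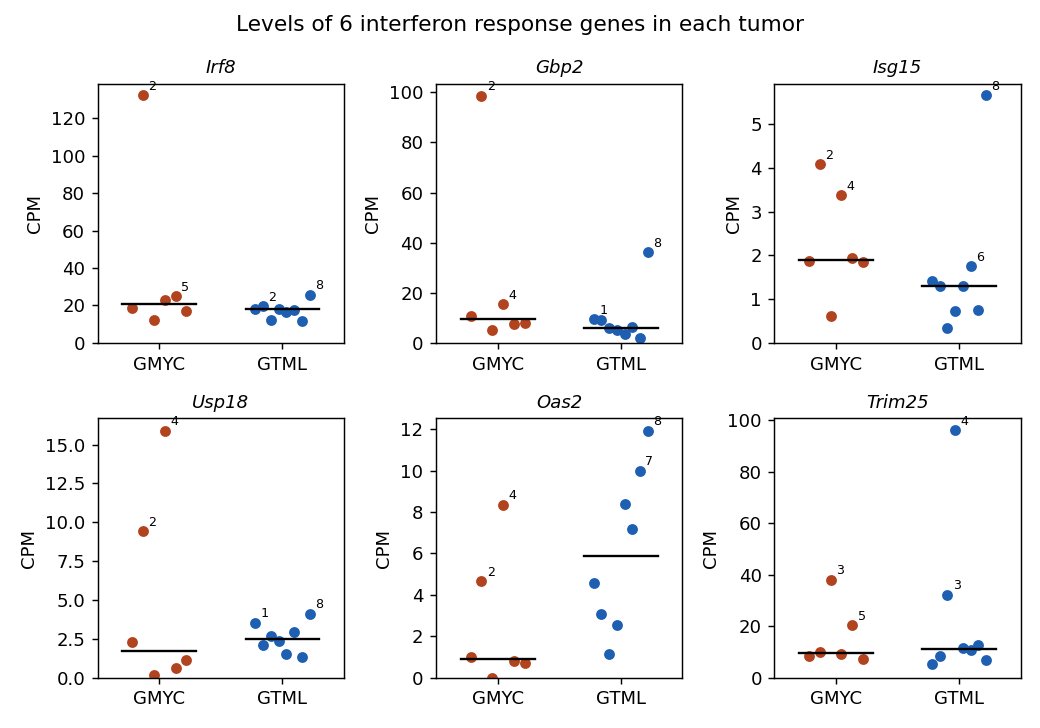
CPM of 6 interferon response genes in each tumor, on linear axes from 0; points are tumors, black lines are medians, and numbers name the highest 2 tumors of each model. GMYC tumor 2 stands alone for Irf8 (132 CPM) and Gbp2 (98.6 CPM), GMYC tumor 4 leads for Usp18 (15.9 CPM) and GTML tumor 4 for Trim25 (96.1 CPM).

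The other antiviral effectors were less alike. Rsad2 (viperin) lay between 0.306 and 6.42 CPM, the highest in GTML tumor 8. Bst2 (tetherin, which holds budding virus on the cell) was at 21.5 CPM in GMYC tumor 2 and 19.5 CPM in GTML tumor 2, and between 0.912 and 9.03 CPM in the other 12 tumors. Without GTML tumor 2 its log2 fold change moved from -0.76 (95% interval -2.07 to 0.55) to -1.55 (edgeR adjusted p = 0.0284), when 30.7% of all genes were called. Eif2ak2 (PKR, which halts translation) was also highest in GTML tumor 2, at 46.0 CPM, with the other 13 tumors between 9.35 and 27.5 CPM and a log2 fold change of -0.04 (95% interval -0.72 to 0.64). Isg20, an RNA exonuclease, was at 5.35 CPM in GTML tumor 8 and between 0.707 and 2.92 CPM elsewhere (log2 fold change 0.64, 95% interval -0.16 to 1.44).

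Among the remaining interferon-stimulated genes, Ifi27 had the highest level per length of the list, a mean of 9.31 CPM per kilobase of exon, ahead of Irf1 (7.61) and Bst2 (7.13). It was at 31.5 CPM in GTML tumor 8, 30.7 CPM in GMYC tumor 4 and 26.0 CPM in GMYC tumor 2, and at most 12.9 CPM in the other 11. Ifi35, a regulator of inflammatory signaling, was between 1.72 and 6.61 CPM in GMYC and between 2.74 and 7.81 CPM in GTML tumors. Its log2 fold change of 0.69 (95% interval -0.09 to 1.47) became 1.04 (edgeR adjusted p = 0.0457; 20.5% of all genes called) without GMYC tumor 2, the only GMYC tumor above 3.38 CPM. Parp14, which attaches ADP-ribose, stood at 70.4 CPM in GMYC tumor 2, 24.9 CPM in GTML tumor 8 and 17.0 CPM in GMYC tumor 4, and at most 10.9 CPM elsewhere (log2 fold change -1.07, 95% interval -2.32 to 0.19). Cxcl10, the chemokine that draws T cells, reached 7.32 CPM in GMYC tumor 2, with every other tumor at 2.75 CPM or less, from 120 counts in all 14 tumors, and its ISRE match lies 213 bases before the start. Ifi44 reached 7.60 CPM, Xaf1 5.49 CPM and Rtp4 9.17 CPM, and each of these 3 had GMYC tumors 2 and 4 and GTML tumor 8 as its highest tumors.

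The same 3 tumors, 2 GMYC and 1 GTML, led most of the list. GMYC tumor 2 was the highest tumor for 15 of the 34 genes, GTML tumor 8 for 10 and GMYC tumor 4 for 4, together 29 of 34, against 13.9% of all genes tested. For 15 of the 34 genes these were exactly the 3 highest tumors, which held for 0.404% of all genes tested. The exceptions, with their highest value in another tumor, were Stat2, Ifit2, Trim25, Eif2ak2 and Ifi35. GMYC tumor 3 was at the other end, lowest for 13 genes and among the lowest 3 for 24. The mean log2 CPM over the list was 3.83 in GMYC tumor 2, 3.48 in GTML tumor 8 and 3.12 in GMYC tumor 4, and between 1.18 (GMYC tumor 3) and 2.36 (GTML tumor 1) in the other 11. By model it was 2.29 ± 0.983 (SD, n = 6) in GMYC and 2.19 ± 0.569 (SD, n = 8) in GTML, a difference of -0.10 that is smaller than either SD. The tumors were singled out after their values had been seen, so these counts describe them and carry no test.

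**Figure D3:**
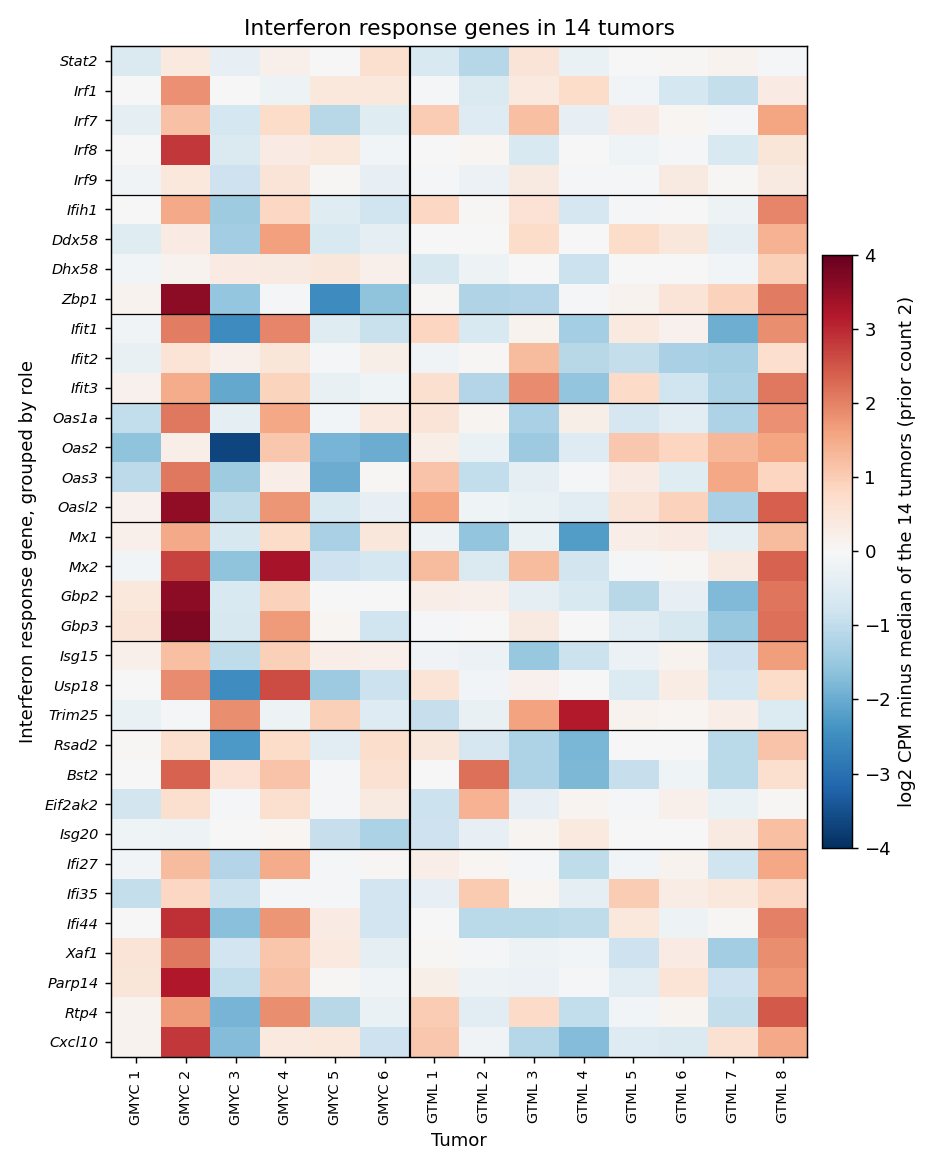
Log2 CPM (prior count 2) of each interferon response gene in each of the 14 tumors, minus the median over the 14; red is above the median, blue is below, the vertical line parts GMYC from GTML and horizontal lines part the roles. Red columns stand at GMYC tumors 2 and 4 and GTML tumor 8, which were highest for 15, 4 and 10 genes, and the blue column at GMYC tumor 3, lowest for 13.

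The 3 tumors did not carry the list in the same proportions. GMYC tumor 2 exceeded GMYC tumor 4 by more than 2-fold for 12 genes (Irf1, Irf8, Zbp1, Oas3, Oasl2, Gbp2, Gbp3, Bst2, Ifi44, Xaf1, Parp14 and Cxcl10), GMYC tumor 4 exceeded GMYC tumor 2 by more than 2-fold for 1 (Ddx58), and 21 were within 2-fold. Against the median of the 14 tumors, Gbp3 was 13.9-fold and Irf8 7.24-fold higher in GMYC tumor 2, compared with 3.38-fold and 1.25-fold in GMYC tumor 4. Mx2 and Usp18 went the other way, at 8.04-fold and 4.04-fold in GMYC tumor 2 and 12.4-fold and 6.81-fold in GMYC tumor 4. GTML tumor 8 was 4.81-fold higher for Gbp3, 6.27-fold for Mx2 and 1.77-fold for Usp18. Each of these is a single biopsy, so the ratios have no replicate error.

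**Figure D4:**
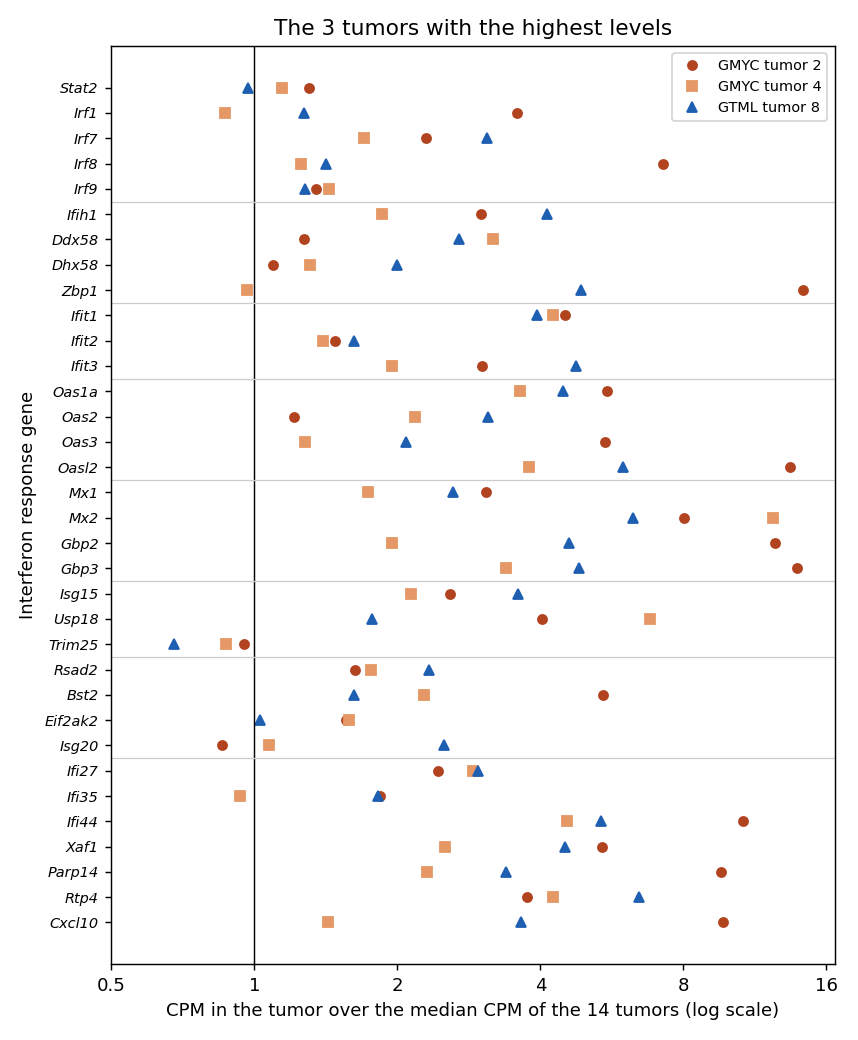
CPM of each interferon response gene in GMYC tumor 2, GMYC tumor 4 and GTML tumor 8 over its median CPM in the 14 tumors, on a log axis; the line marks a ratio of 1. GMYC tumor 2 lies farthest right for Gbp3 (13.9-fold) and Irf8 (7.24-fold), GMYC tumor 4 for Mx2 (12.4-fold) and Ddx58 (3.17-fold), and all 3 lie left of the line for Trim25.

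The ligands themselves were almost uncounted. The 8 interferon genes in the table had 47 counts over all 14 tumors, and none passed the filter. Interferon gamma (Ifng) had 18 counts, 17 of them in GMYC tumor 2 and 1 in GTML tumor 6. No other ligand had more than 8 counts in a tumor (Ifnk, GTML tumor 2), and Ifna4, Ifnl2 and Ifnl3 had 0 in every tumor. Among the further interferon-stimulated genes, 3 known as interferon gamma targets were far higher in GMYC tumor 2 than in any other tumor. Iigp1 was at 257 CPM there against at most 21.9 in the other 13, Gbp7 at 175 CPM against at most 24.9, and Cxcl9 at 63.9 CPM against at most 4.43. These 3 were picked after their values had been seen. The next highest value of each was in GTML tumor 8, which had 0 Ifng counts. A link between the Ifng counts and these levels was not tested. Of the 58 further interferon-stimulated genes that were tested, 12 had the same 3 tumors on top and 44 were highest in one of them, 21 in GMYC tumor 2, 21 in GTML tumor 8 and 2 in GMYC tumor 4.

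The spread between tumors of one model was large for most of the list. The biological coefficient of variation fitted by edgeR, the relative spread between tumors beyond counting error, had a median of 0.753 over the 34 genes and 0.354 over all genes tested, and the 34 ran from 0.283 (Irf9) to 1.19 (Zbp1). It exceeded the 90th percentile of all genes (0.721) for 18 of 34. Without GMYC tumor 2 the median of the list was 0.692 and without GTML tumor 8 it was 0.676, with 16 genes over the percentile in each case. The list is also lower in level, with a median mean log2 CPM of 2.33 against 4.27 for all genes, and this coefficient is generally larger for genes of low level. The part of level in the difference was not tested. The 7 genes with mean log2 CPM above 4 ran from 0.283 (Irf9), 0.330 (Stat2), 0.426 (Eif2ak2) and 0.445 (Irf1) to 0.581 (Irf8), 0.785 (Trim25) and 0.876 (Gbp2).

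**Figure D5:**
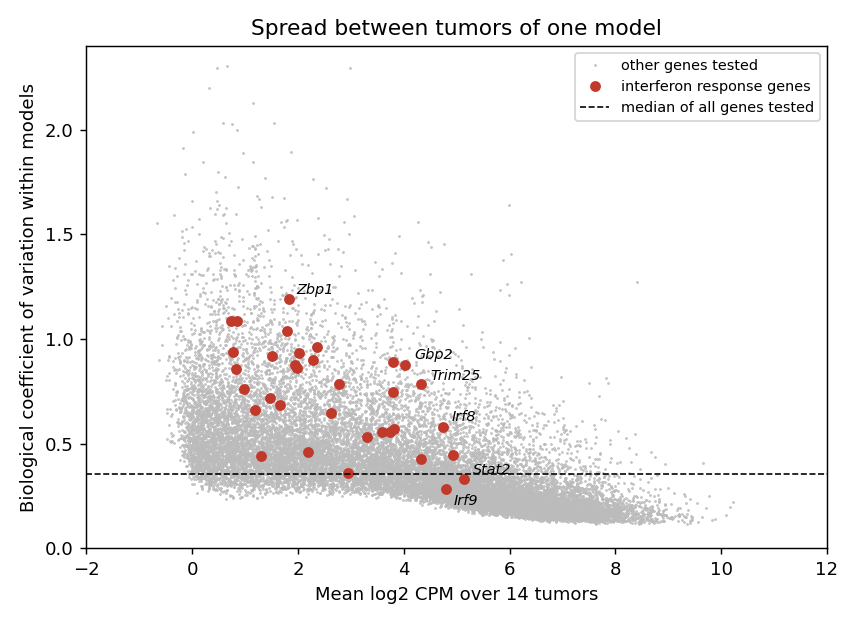
Biological coefficient of variation within models (edgeR, 6 GMYC and 8 GTML tumors) against mean log2 CPM over the 14 tumors, for the interferon response genes (red) and the other genes tested (grey); the dashed line is the median of all genes, 0.354. Most red points lie above it, from Irf9 at 0.283 to Zbp1 at 1.19.

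Of 100 further pathway genes tested (58 of them further interferon-stimulated genes, the rest receptors, kinases, sensors, regulators and inhibitors), 14 were called, a share below the 21.2% of all genes. Of these, 11 were higher in GTML, near the background of 11.5%, and 3 higher in GMYC, below the background of 9.71%, and 4 of the 14 were further interferon-stimulated genes. Adar, the RNA editing enzyme that marks self RNA, was between 73.5 and 127 CPM in GMYC and between 146 and 233 CPM in GTML, without overlap (log2 fold change 0.85 ± 0.134 SE, edgeR adjusted p = 0.00250). Irf4, a lymphoid and myeloid regulator, was at most 0.566 CPM in GMYC and between 1.06 and 4.59 CPM in GTML (2.15 ± 0.419, adjusted p = 0.00563), and Ifnlr1, the type III receptor chain, at most 0.483 CPM in GMYC and up to 5.35 CPM in GTML (3.45 ± 0.769, adjusted p = 0.00902). In GTML tumors 1 and 2, which are higher-snoRNA tumors, Ifnlr1 was at 0.705 and 0 CPM, and in the other 6 between 2.37 and 5.35 CPM. Both genes rest on few counts. Irf4 had 2 to 4 counts per GMYC tumor and 6 to 30 per GTML tumor, and Ifnlr1 had 0 to 3 and 0 to 35. The receptor chains Ifnar1 (type I, median 148 CPM in GMYC and 108 CPM in GTML) and Ifngr2 (type II, medians 49.7 and 32.9 CPM) were higher in GMYC, with log2 fold changes of -0.46 ± 0.116 and -0.50 ± 0.133 and adjusted p of 0.0145 and 0.0169. The third was the peptidase Lap3, one of the further interferon-stimulated genes, at -0.54 ± 0.173 (adjusted p = 0.0382). Within the higher-snoRNA and lower-snoRNA tumors the log2 fold changes were -0.44 and -0.38 for Ifnar1 and -0.17 and -0.64 for Ifngr2, none past the threshold, where only 2 of all genes were called in the higher-snoRNA tumors. Irf4 was at 1.99 in the lower-snoRNA tumors (adjusted p = 0.0693), and Lap3 at -0.08 in the higher-snoRNA tumors. The other receptor chains were not called, with medians in GMYC and GTML of 29.96 and 21.4 CPM for Ifnar2, 33.8 and 32.3 CPM for Ifngr1 and 9.03 and 5.02 CPM for Il10rb. None of the 8 feedback inhibitors tested was called, and of the 8 kinases and STATs only Stat5b was, higher in GTML.

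Markers of host cells differed between the same tumors. The 14 microglia and macrophage markers summed to 626 CPM in GTML tumor 8, the highest value, to 486 CPM in GMYC tumor 2 and to 415 CPM in GMYC tumor 4. In the other tumors the sum was between 319 and 499 CPM in GMYC and between 155 and 427 CPM in GTML, so GMYC tumor 5, at 499 CPM with a list mean of 1.78, was above GMYC tumor 2. The defining markers Aif1, Cx3cr1, Tmem119 and P2ry12 were above 0 in all 14 tumors. Of the 14 markers, 2 were called higher in GMYC and 0 higher in GTML, against 9.71% and 11.5% of all genes. The 9 T and NK cell markers summed to 75.3 CPM in GTML tumor 8, 45.5 CPM in GMYC tumor 2 and between 17.7 and 42.3 CPM elsewhere, 24.1 CPM in GMYC tumor 4. Cd4, which microglia and macrophages can also express, made most of that sum (52.3 CPM in GTML tumor 8, 35.5 CPM in GMYC tumor 2 and 40.1 CPM in GTML tumor 4). The other 8 markers summed to 23.1 CPM in GTML tumor 8, 11.1 CPM in GTML tumor 3, 9.99 CPM in GMYC tumor 2 and between 1.14 and 6.01 CPM elsewhere, and of all 9 only Cd4 and Cd8a passed the filter. Of their defining genes, Cd8a was highest in GTML tumor 8 (17.4 CPM), followed by GTML tumor 3 (10.3 CPM) and GMYC tumor 2 (6.19 CPM), and Cd3e was at 0 in all tumors except GTML tumor 8 (0.611 CPM) and GMYC tumor 2 (0.563 CPM). The 4 B cell markers summed to 11.2 CPM in GTML tumor 8 and to no more than 4.27 CPM elsewhere. The sum of the 8 endothelial markers was highest in GTML tumors 6 (370 CPM) and 8 (307 CPM), where Kdr alone gave 151 and 142 CPM. Taken singly, 2 of the 8 (Tek and Esam) were highest in GTML tumor 8 and 1 (Cdh5) in GMYC tumor 2. The 6 astrocyte markers summed to 1361 CPM in GMYC tumor 4, the highest value. Their sum was 800 CPM in GMYC tumor 2 and 799 CPM in GTML tumor 8, below the median of 869 CPM over the 14 tumors. Slc1a2, the gene of Glt1 whose promoter drives both transgenes, made most of these sums. It was at 811 CPM in GMYC tumor 4, 661 CPM in GMYC tumor 2 and 585 CPM in GTML tumor 8. How much of it came from tumor cells was not tested. Gfap alone was at 230 CPM in GMYC tumor 4, 19.3 in GMYC tumor 2 and 67.5 in GTML tumor 8. The 2 plasmacytoid dendritic cell markers, Siglech and Ccr9, summed to 20.1 CPM in GTML tumor 3, of which Ccr9 made 19.5 CPM. Their sum was 15.3 CPM in GTML tumor 8, 7.14 CPM in GMYC tumor 4 and 5.35 CPM in GMYC tumor 2. Of the 5 erythroid markers, 4 were called higher in GMYC, against 9.71% of all genes. The part of these cells in the levels of the interferon response genes was not tested, and in bulk biopsies more cells of a type and more RNA per cell cannot be told apart.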

How the data were processed

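RNA came from 14 flash-frozen tumor biopsies (RNeasy; Ion Torrent libraries per the labels). The methods name the Ion Proton for the GMYC tumors and describe GTML data as partly from earlier work without saying which tumors, so model and dataset are in part confounded and cannot be told apart. The authors aligned reads to mm9 with STAR and then Bowtie, and deposited whole-number counts per gene from featureCounts, without normalization. How strand and duplicate reads were handled is not given in the sources used here, and 11 of the 34 genes share exon bases with another gene, whose reads may then be ambiguous. A further 18 columns matched no sample label and were not used, so comparisons of onalespib-treated cells were not run. A result that needs an item withheld here is not reported. The genes and lists were chosen with earlier results of these data known.

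Symbols and exon lengths were matched by Ensembl identifier (32620 of 37310 genes with both). The test was the quasi-likelihood test of edgeR 4.0.16 (R 4.3.3; TMM normalization, Benjamini-Hochberg adjustment over all genes tested, a CPM above 1 in at least 3 tumors); limma 3.58.1 (voom) and DESeq2 1.42.0 were alternatives. The list mean averages the log2 CPM of the 34 genes (prior count 2). On simulated counts for 21024 genes of this comparison, edgeR called 32 of 100 genes changed by 1 log2 unit, 63 of 100 changed by 2 units and 3 unchanged genes. The changed genes were drawn at random from all genes tested. Those have a smaller median spread (0.354 against 0.753) and a higher median level than the list, so these rates do not describe the list. Every pair of tumors of one model differed by more than counting noise (chi-square per degree of freedom at least 5.67). Named were all 34 genes, by role, the 3 further pathway genes with the smallest p in each direction, ligands, receptors and summed cell markers. Sums for neutrophils, oligodendrocytes and cerebellar neurons were computed but are not given. Intervals cover the spread between tumors; counting error alone would be narrower.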

Additional observations from a re-analysis of the deposited data

Results flagged for a closer look

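A tumor lay apart from the rest of its model, by a gap to the next tumor above Dixon's 95% limit, in 31 of 70 sets of values (34 genes and the list mean, in each model), or 44.3%. Chance flags about 1 in 20, or 3.5, for independent, normally distributed values, which skewed CPM of genes that vary together are not. Over all genes tested, 13.2% of such sets were flagged, and 16 of the 31 here are of 1 tumor. No cause was tested.

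GMYC tumor 2 lay apart for 11 genes. Irf8 was at 132 CPM there (next GMYC tumor 24.8), Gbp2 at 98.6 (15.4), Irf1 at 88.8 (33.6), Gbp3 at 82.6 (20.1) and Parp14 at 70.4 CPM (17.0). Oasl2 was at 25.3 (7.14), Zbp1 at 21.95 (1.72), Bst2 at 21.5 (9.03), Cxcl10 at 7.32 (1.13), Ifi35 at 6.61 (3.38) and Oas3 at 5.21 CPM (1.21). GMYC tumor 4 lay apart for Ddx58 alone, at 31.9 CPM (12.8).

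GTML tumor 8 lay apart for 15 genes and the list mean, 3.48 against 2.36 in the next GTML tumor. Gbp2 was at 36.2 CPM (next GTML tumor 9.52), Ifi27 at 31.5 (12.9), Gbp3 at 28.6 (7.65), Parp14 at 24.9 (10.9) and Ifih1 at 17.4 CPM (7.76). Dhx58 was at 13.6 (6.82), Ifit1 at 9.48 (4.58), Rtp4 at 9.17 (3.17), Zbp1 at 7.49 (3.21) and Mx2 at 7.03 CPM (3.17). Isg15 was at 5.65 (1.75), Isg20 at 5.35 (2.92), Xaf1 at 4.58 (1.36), Oas1a at 3.97 (1.41) and Ifi44 at 3.82 CPM (1.08).

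Of the other GTML tumors, tumor 4 lay apart for Trim25, at 96.1 CPM (32.3), and tumor 2 for Eif2ak2, at 46.0 CPM (20.2), and for Bst2, at 19.5 CPM (6.42).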

How the results depend on the processing

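The number of genes called between GTML and GMYC tumors (4459) was 2851 with the snoRNA split as a covariate, 2 in the higher-snoRNA tumors alone, 2662 in the lower-snoRNA tumors alone, 676 under the strict rule and between 2617 (without GMYC tumor 3; 2916 without GMYC tumor 5) and 6430 (without GTML tumor 2) when 1 tumor was left out. The number of interferon response genes called (0) was 1 in the lower-snoRNA tumors and between 0 and 2 with 1 tumor left out, and 0 with limma-voom, DESeq2, no TMM, no filter, filterByExpr (27 of the 34 tested), the covariate and the higher-snoRNA tumors. DESeq2 gave no adjusted p for Irf8 or Gbp2. On either side of the snoRNA split 33 of the 34 were tested. Of the 13 interferon response genes recomputed, Gbp2, Gbp3 and Parp14 turned to 0.32, 0.87 and 0.45 in the lower-snoRNA tumors, Irf9, Bst2, Isg20 and Eif2ak2 to -0.22, 0.23, -0.58 and 0.45 in the higher-snoRNA tumors, and Eif2ak2 to 0.091 with the covariate. Leaving out 1 tumor gave log2 fold changes of -0.35 to 0.069 for Eif2ak2, -2.03 to 0.059 for Gbp2, -0.040 to 0.21 for Irf9 and -1.47 to 0.034 for Parp14. The difference in list mean (-0.10) ran from -0.32 to 0.21 when 1 tumor was left out, and changed sign without GMYC tumor 2 or 4; it was -0.06 with a prior count of 0.5 and -0.10 without TMM. Of the further pathway genes, Lap3 (-0.54) missed the threshold in 10 of 14 fits that left out 1 tumor (GMYC 1, 2, 3 or 5, GTML 1, 3, 5, 6, 7 or 8), and with the covariate (adjusted p = 0.0963). Ifnlr1 missed it with limma-voom (adjusted p = 0.0779) and the covariate (0.0691), Irf4 in the lower-snoRNA tumors (0.0693), and Adar, Ifnar1, Ifngr2 and Lap3 in the higher-snoRNA tumors, where Irf4 and Ifnlr1 were not tested. Irf4 did not pass filterByExpr. Irf8 kept its sign in every setting and ran from -1.30 to -0.13 with 1 tumor left out. Leaving out 1 tumor for the spread of the list was added after seeing the data. Settings meant for the onalespib comparisons were not run.

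Tumors share the numbers 1 to 6 across models, but deviations of same-numbered tumors correlated at -0.21 to 0.24, with 1 of 6 pairs over 0.1, so the numbers were not taken to pair them. With the replicate block, on 12 tumors, 251 genes and 0 of the 34 were called, and Adar alone of the 6 further pathway genes recomputed stayed past the threshold (adjusted p = 0.0382). Depth limits the low genes: Cxcl10 rests on 120 counts and Oas3 on 121 over the 14 tumors. GTML tumors were counted less deeply than GMYC tumors, and the deposited order separates the 6 higher-snoRNA tumors, so order and snoRNA share cannot be told apart.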
